A study of Mus musculus with 32 samples.

Results

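The 10 genes described here encode the core machinery of N6-methyladenosine (m6A), the most common internal modification of messenger RNA. They are the writers Mettl3, Mettl14, Wtap and Zc3h13, the erasers Fto and Alkbh5, and the readers Ythdf1, Ythdf2, Ythdf3 and Ythdc1. They were chosen by name and for no measured value, and all 10 were listed among the 26560 genes of the Lin- RNA-seq table and the 25887 genes of the CD11b+ table. Each eCLIP peak was given to a gene by the Ensembl gene ID in its name.

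m6A is deposited in the nucleus by a complex whose catalytic subunit is METTL3 and whose RNA-binding partner is METTL14, while WTAP and ZC3H13 hold the complex in nuclear speckles. FTO and ALKBH5 are the demethylases. YTHDF proteins read the mark in the cytoplasm and YTHDC1 reads it in the nucleus. IGF2BP3, the protein immunoprecipitated in this study, belongs to a family of RNA-binding proteins that have themselves been described as m6A readers.

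IGF2BP3 was studied in 2 mouse cell types that carry the retroviral MLL-Af4 fusion oncogene. Lin- cells were bone marrow cells depleted of mature lineages, transduced with MLL-Af4 and selected with G418, and so are cultured, transformed progenitors. CD11b+ cells were picked with a CD11b antibody from splenic tumors of mice with MLL-Af4 leukemia. IGF2BP3 eCLIP, in which a protein is UV-crosslinked to RNA, immunoprecipitated and its bound fragments sequenced, was done on untreated cells in 6 Lin- libraries (3 biological, 3 technical) and 4 CD11b+ libraries (2 biological, 2 technical), each numbered like a size-matched input (smInput) library that shows RNA recovered without the antibody. The eCLIP labels give no genotype, and the study's captions describe the cells as WT/MLL-Af4. RNA-seq was done in 3 wild type and 3 IGF2BP3 KO libraries per cell type, also with MLL-Af4, and the knockout allele is a germline deletion that arose in Vav1-Cre mice. The technical libraries are not tied to a biological library in the labels and were not counted as independent.

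The deposited lists held 4040 to 10042 filtered peaks per Lin- eCLIP library and 7085 to 10054 per CD11b+ library, against 217 to 1808 and 1381 to 1885 peaks in the inputs. Read depth is not known for any eCLIP library, and the absence of a peak cannot be read as absence of binding. The tables put Kit at a mean of 6974 normalized counts in Lin- and 673.1 in CD11b+ cells and Csf1r, the receptor for a macrophage growth factor, at 7910 and 15008. Itgam, which encodes CD11b itself, was not listed in the Lin- table and stood at 16.97 in CD11b+ cells, a low level for the marker used in the selection, while the myeloid genes Elane (43055) and Ly6c2 (15841) were high. Igf2bp3 stood at 2041 and 1355, as a mean that includes the KO libraries, and its level in each library was not analysed here.

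Many of the recurring regions lay at intron ends or in repeats, and a few are shown so that the letters can be read beside the values. Others, among them the deep Wtap 5'UTR region whose sequence is given with its values, were in neither setting. All are on the strand of the transcript, from mm10. The first set gives the last 30 nt of the introns whose ends lay under a recurring peak region, a region found in at least 2 biological libraries of a cell type or in both cell types. Capitals mark the AG at the intron end.
Ythdf3 intron 3 (chr3:16203796-16203825): cactactgattatggtcttctgttttgcAG
Ythdc1 intron 5 (chr5:86820603-86820632): tctgaacaaatgtactttggctaaatacAG
Ythdc1 intron 8 (chr5:86822761-86822790): agtgacaaatgtgatactgtggtcccctAG
Ythdc1 intron 11 (chr5:86830524-86830553): tttaatttctaatgtgtctaatttgtgtAG
Ythdc1 intron 14 (chr5:86831918-86831947): cattgttgacaatgtcatcttctattttAG
Wtap intron 5 (chr17:12975475-12975504): ggtagtaattgtaccctttgctttgcacAG

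The second set gives up to 30 nt around the summit of the deepest peak in recurring regions made of simple or purine-rich repeats. Capitals mark CA repeats (ACACAC, or its shifted form CACACA), TG repeats (TGTGTG, or GTGTGT) and GA repeats (GAGAGA, or AGAGAG), each of at least 6 letters. The last 2 lines are coding sequence, in which most bases are purines.
Fto intron 8 (chr8:91543818-91543847): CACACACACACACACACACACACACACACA
Fto intron 8, farther on (chr8:91589468-91589497): GAGAGAGAGAGGAGAGAGAGggggGAGAGA
Ythdf3 intron 3 (chr3:16195727-16195756): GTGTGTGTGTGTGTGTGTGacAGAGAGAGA
Alkbh5 3'UTR (chr11:60557679-60557708): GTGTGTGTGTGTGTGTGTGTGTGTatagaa
Zc3h13 exon 12 (chr14:75327969-75327998): gagcgagaacgggagcgggagcGAGAGAGg
Ythdc1 exon 4 (chr5:86817151-86817180): atgaagaggaagaagaggatgaggacgagg

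All 10 genes were expressed in both cell types. The level was taken as the authors' mean normalized count per kb of exons. It is a mean over both genotypes with no spread, and the 2 tables were normalized separately, so the order of neighbouring genes cannot be tested and levels set across cell types are not on 1 scale. In these bulk samples fewer cells of a type and less RNA per cell cannot be told apart. The median over the 10 genes was 536.3 per kb in Lin- cells, where the median of all 16656 genes with a mean of at least 10 was 219.2, and 261.2 per kb in CD11b+ cells, where that median, over 16179 genes, was 146.9.

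Among the writers, Mettl14 was lowest of the 10 in both cell types, at 124.7 per kb in Lin- and 59.55 in CD11b+ cells, or the 38.8th and 30.9th percentile of expressed genes. Its catalytic partner Mettl3 stood higher, at 429.1 and 236.1 per kb. Wtap, the adaptor of the complex, was the gene whose place differed most between the tables: it was the 8th of 10 in Lin- cells at 359.8 per kb and the 1st in CD11b+ cells at 372.1. With its longest transcript (3187 nt in place of 4903 nt of exons) it was the 6th at 553.5 per kb and the 1st at 572.4. Zc3h13 stood at 376.6 and 171 per kb.

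The erasers lay apart from each other. Alkbh5 reached 705.1 per kb in Lin- and 281.6 in CD11b+ cells, whereas Fto, whose exons sum to 12371 nt, stood at 189.7 and 88.56. Its place depends on that length, since with the longest transcript (4707 nt) its levels were 498.4 and 232.7 per kb.

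The readers were the highest group in Lin- cells. Ythdf1 led with 839.4 per kb and Ythdc1, the nuclear reader, followed Alkbh5 with 694.7. Ythdf3 and Ythdf2 stood at 672 and 643.5. In CD11b+ cells the same 4 genes lay between 240.9 (Ythdf2) and 350 (Ythdf1) per kb.

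**Figure D1:**
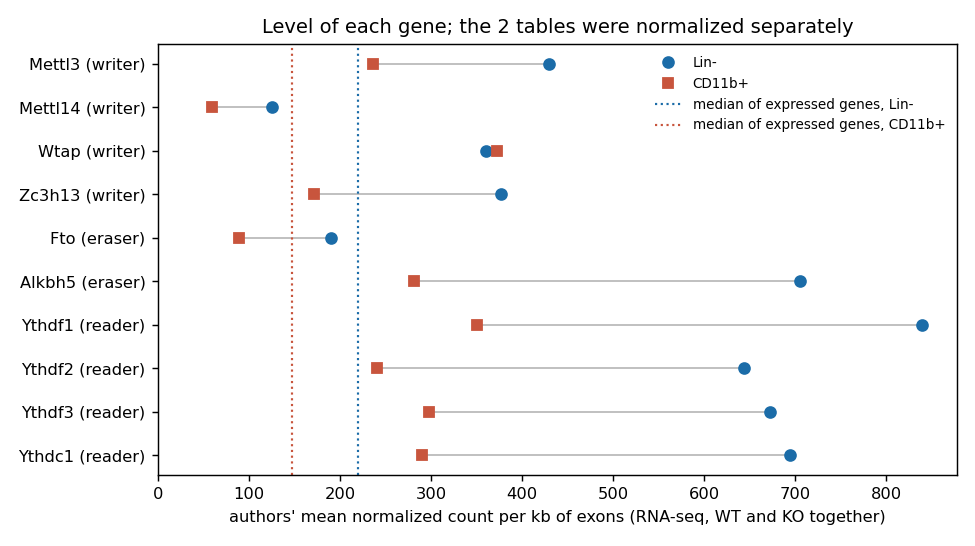
The horizontal axis gives the authors' mean normalized count per kb of exons for each of the 10 genes, as circles for Lin- and squares for CD11b+ cells, with dotted lines at the median of expressed genes of each table and no error, since only the mean over WT and KO libraries was used. In Lin- cells the 4 readers and Alkbh5 lie between 643.5 and 839.4, and Mettl14 and Fto lie below the dotted line in both cell types.

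IGF2BP3 peaks were found on 9 of the 10 genes in Lin- cells and on 7 of 10 in CD11b+ cells. Mettl14 had no peak in any of the 10 eCLIP libraries, before or after the smInput filter, and Mettl3 and Ythdf1 had none in CD11b+ cells. Of all genes in the table, 26.5% had a peak in Lin- cells and 25.6% in CD11b+ cells, but most listed genes stand below 400 normalized counts. Among those at 400 or above, a level that all 10 exceed and that was chosen after seeing the values, the shares were 63.6% and 58.8%. Most peaks rested on few reads. The number in each peak name, read as its reads, ran from 3 to 30 (median 5) over the 68 peaks on these genes in Lin- cells and from 3 to 46 (median 10) over the 45 peaks in CD11b+ cells. With peaks of at least 10 reads alone, 5 genes remained in each cell type.

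**Figure D2:**
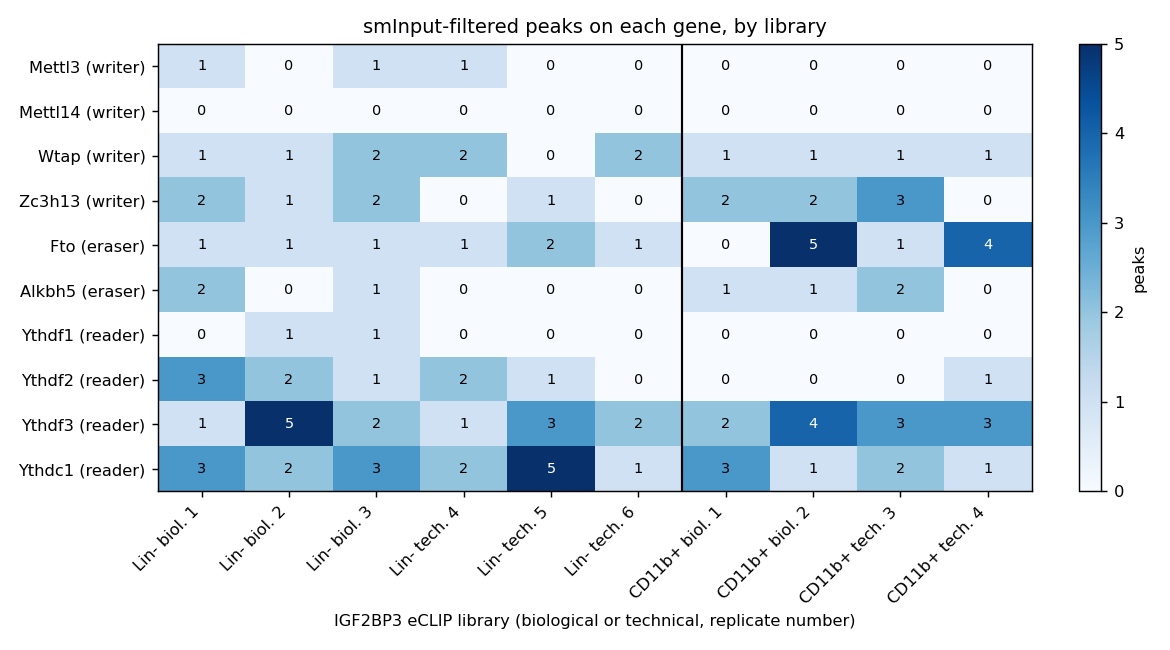
Each cell gives the number of smInput-filtered peaks on a gene (rows) in an eCLIP library (columns, Lin- left of the line and CD11b+ right), with darker blue for more peaks. Ythdf3 and Ythdc1 have at least 1 peak in each of the 10 libraries, the Mettl14 row is empty, and Fto reaches 5 and 4 peaks in CD11b+ biological library 2 and technical library 4.

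Merging peaks that overlapped within a cell type gave 42 regions on the 10 genes in Lin- cells, of 20608 in all, and 19 in CD11b+ cells, of 17735. Ythdc1 held the most in Lin- cells, with 9, followed by Ythdf2 with 7, Ythdf3 with 6 and Fto with 5. In CD11b+ cells Fto held 5, Ythdf3 and Ythdc1 held 4 each, and Zc3h13, Alkbh5, Wtap and Ythdf2 held 1 or 2. The median gene with any region had 2 in Lin- and 1 in CD11b+ cells. Of the 42 Lin- regions, 29 (69.0%) came from 1 library, as did 9 of the 19 (47.4%) in CD11b+ cells, against 61.9% and 57.2% of the regions on all genes.

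The number of peaks per gene was compared between cell types as peaks per 10000 peaks of the library, in 3 Lin- and 2 CD11b+ biological libraries. Ythdf2 was the only one of the 10 whose libraries did not overlap. It had 3, 2 and 1 peaks in Lin- biological libraries 1, 2 and 3 and none in CD11b+ biological libraries 1 and 2, so each Lin- library stood above both CD11b+ libraries. This is 2.41 ± 1.51 peaks per 10000 (SD, n = 3) against 0 (n = 2), with a two-sided exact permutation p = 0.2, where 3 against 2 libraries cannot give a p below 0.1. Of the 9290 genes compared, 9.34% had every Lin- library above every CD11b+ library and 10.6% the reverse. A call in either direction was allowed and Mettl14 had no peak to compare, so 1 called gene is not above the background. The call was lost in the technical libraries, where CD11b+ library 4 had 1 Ythdf2 peak and Lin- library 6 had none.

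For the other members with a peak in a biological library, the libraries of the cell types overlapped. Ythdc1 had 3, 2 and 3 peaks in the Lin- and 3 and 1 in the CD11b+ biological libraries, and Ythdf3 had 1, 5 and 2 against 2 and 4. Both genes thus had a peak in every biological library, with no separation of the cell types (exact permutation p = 0.6 and 0.9). Fto had 1 peak in each Lin- biological library, but 0 and 5 in the CD11b+ libraries, whose spread of 3.52 per 10000 (SD, n = 2) exceeded their mean of 2.49.

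In Lin- cells 4 genes (Zc3h13, Fto, Ythdf2, Ythdc1) had more unfiltered peaks per 10000 in each of the 3 biological eCLIP libraries than in any of the 3 inputs with the same numbers. All 4 had no input peak. The exact permutation test gave p = 0.1 for each, the smallest that 3 against 3 libraries allow. It did not pair each input with the eCLIP sample it came from. Of the 8347 genes compared, 21.4% met the same criterion. In CD11b+ cells Wtap, Zc3h13, Ythdf3 and Ythdc1 did so in 2 against 2 libraries, where the smallest exact p is 0.333 and 34.1% of 7319 genes met it. In Lin- cells the mean was lower in eCLIP than in the inputs for Wtap (1.98 against 4.26, exact permutation p = 0.4) and Alkbh5, and in CD11b+ cells for Alkbh5. Wtap had 2 peaks in each Lin- eCLIP library and 1, 1 and 0 in the inputs. A peak of 3 or 4 reads was called near chr11:60543279-60543296, in an intron of Alkbh5, in 5 of the 10 inputs, and the mean was 4.35 peaks per 10000 in the Lin- inputs against 1.07 in eCLIP and 5.66 against 0.948 in CD11b+ cells (exact permutation p = 0.4 and 0.333). These directions come with the scaling to the short input lists. Unscaled, Alkbh5 had 2, 0 and 1 peaks in Lin- eCLIP against 1, 0 and 1 in the inputs, and 1 and 1 against 1 and 1 in CD11b+ cells.

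The location of the regions was mostly intronic. By the region centre, 31 of 42 Lin- regions (73.8%, 95% Wilson interval 58.9 to 84.7%) and 13 of 19 CD11b+ regions (68.4%, 46.0 to 84.6%) lay in introns, against 77.5% and 83.7% of the regions on all genes. Where any base in an exon counts as exonic, the Lin- share was 31.0%, since most of these regions run across an exon edge. In Lin- cells 7 regions (16.7%, 8.32 to 30.6%) lay in 5'UTRs, those of Wtap, Zc3h13, Ythdf1, Ythdf2 and Ythdf3, against 4.99% over all genes. The Zc3h13 region at chr14:75284407-75284491 alone was in 2 biological libraries. The other 5'UTR regions came from 1 library each, except a Wtap region that overlapped input peaks. In CD11b+ cells 3 of 19 (15.8%, 5.52 to 37.6%) were coding, on Zc3h13 and Ythdc1, against 2.02%. The intervals cover counting error only.

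Within introns, the distance to splice sites was described for each cell type, with no test of the difference. In Lin- cells 18 of the 31 intron regions (58.1%, 40.8 to 73.6%) were centred at most 50 nt before a 3' splice site, on 8 of the genes with peaks, all but Fto. In CD11b+ cells this held for 3 of 13 (23.1%, 8.18 to 50.3%), and 9 of 13 were more than 1000 nt from any splice site. The intervals of the cell types overlap, and the CD11b+ share rests on few regions: in biological libraries alone it was 27.3%, and without biological library 2 it was 75.0% (3 of 4), above the Lin- share. Over all genes 50.1% and 12.1% of intron regions were at most 50 nt before a 3' splice site. Of the 90 annotated 3' splice sites of the 10 genes, 18 had a region, among them 5 of 17 in Ythdc1, 3 of 6 in Ythdf3 and 3 of 4 in Ythdf2. Sites with and without a region had similar pyrimidine content in the last 30 nt of the intron, with medians of 61.7% and 63.3%. Their ranges were 46.7 to 80% and 43.3 to 83.3%. Some of the 18 rest on 1 library with 3 or 4 reads, and a site without a region may still be bound.

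Simple repeats took a larger share of the CD11b+ regions. A CA, TG or GA repeat of 6 letters, searched on the transcript strand alone, was in 7 of 42 Lin- regions (16.7%, 8.32 to 30.6%) and 12 of 19 CD11b+ regions (63.2%, 41.0 to 80.9%), where all genes had 18.1% and 46.5%. In a window of 100 nt at the region centre the shares were 31.0% (13 of 42) and 68.4% (13 of 19), so the Lin- value depends on the length searched. CA repeats were in 4 regions in each cell type, or 9.52% and 21.1% against 8.35% and 17.0% over all genes. GA repeats were in 7 of 19 CD11b+ regions (36.8%, 19.1 to 59.0%) against 11.3% over all genes. The letters GGAC, the core of the usual m6A consensus, were within the central 100 nt of 11 Lin- regions (26.2%) and 2 CD11b+ regions (10.5%), against 25.0% and 19.4%. The 50 nt limit and the repeat classes were chosen after the regions had been seen, so the counts are descriptions. The track headers name a repeat filter before mapping, and how reads that map to several places were treated is not given in the sources used here.

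Library by library, peaks with a repeat were 14.3, 15.4 and 7.14% of the peaks on the 10 genes in the Lin- biological libraries and 11.1, 25.0 and 16.7% in the technical ones. In CD11b+ cells they were 44.4 and 71.4% in the biological and 58.3 and 70.0% in the technical libraries, so the cell types did not overlap in any library. Over all genes the repeat shares were separate as well, at 11.9 to 20.4% in Lin- and 36.7 to 58.5% in CD11b+ libraries. The number of peaks behind each share on the 10 genes was 6 to 14. Peaks before a 3' splice site made up 64.3, 30.8 and 50% in the Lin- biological and 33.3 and 14.3% in the CD11b+ biological libraries, and here Lin- library 2 lay just below CD11b+ library 1. Over all genes the libraries of the cell types were separate for this share, at 15.4 to 54.5% and 6.39 to 10.1%, and Lin- biological library 2 (16.5%) and technical library 5 (15.4%) stood well below the other 4 Lin- libraries. The inputs were all below 1% for it.

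**Figure D3:**
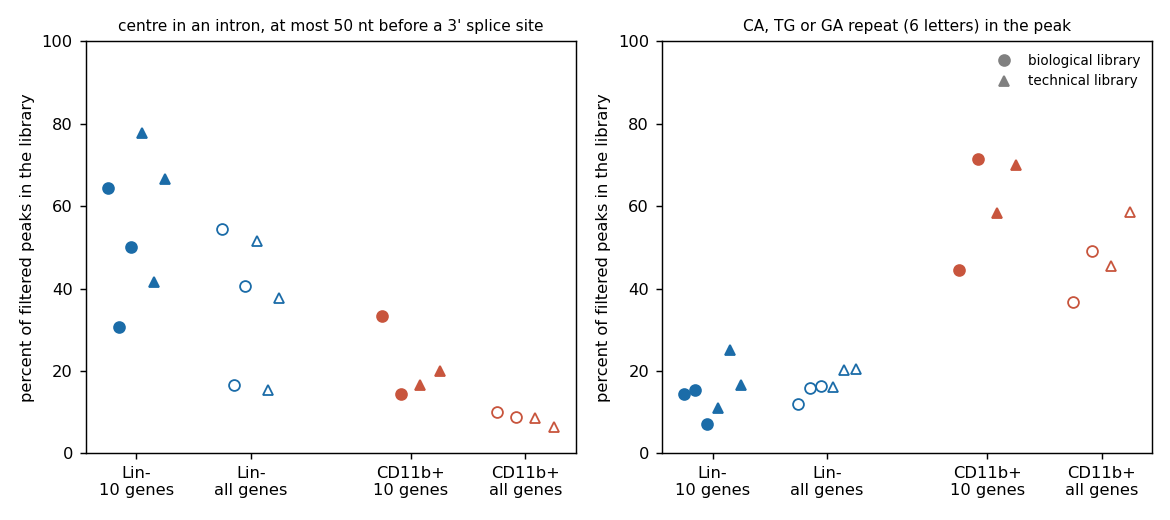
The vertical axes give the percent of filtered peaks in each library centred in an intron at most 50 nt before a 3' splice site (left) or holding a CA, TG or GA repeat of 6 letters (right), with circles for biological and triangles for technical libraries, filled for the 10 genes and open for all genes. Repeats take 7.14 to 25.0% of the peaks on the 10 genes in Lin- and 44.4 to 71.4% in CD11b+ libraries. Over all genes they take 11.9 to 20.4% and 36.7 to 58.5%. The left panel shows the opposite order, with Lin- biological library 2 (30.8%) under CD11b+ biological library 1 (33.3%) on the 10 genes.

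There were 17 recurring regions on these genes, and 9 of them had peaks in both cell types. Of the 42 Lin- regions 21.4% overlapped a CD11b+ region, and of the 19 CD11b+ regions 47.4% overlapped a Lin- region, against 25.1% and 29.7% for all genes. No other annotated gene overlaps any of the 17 on either strand, and 1 of them, in the Wtap 5'UTR, overlapped an input peak.

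**Figure D4:**
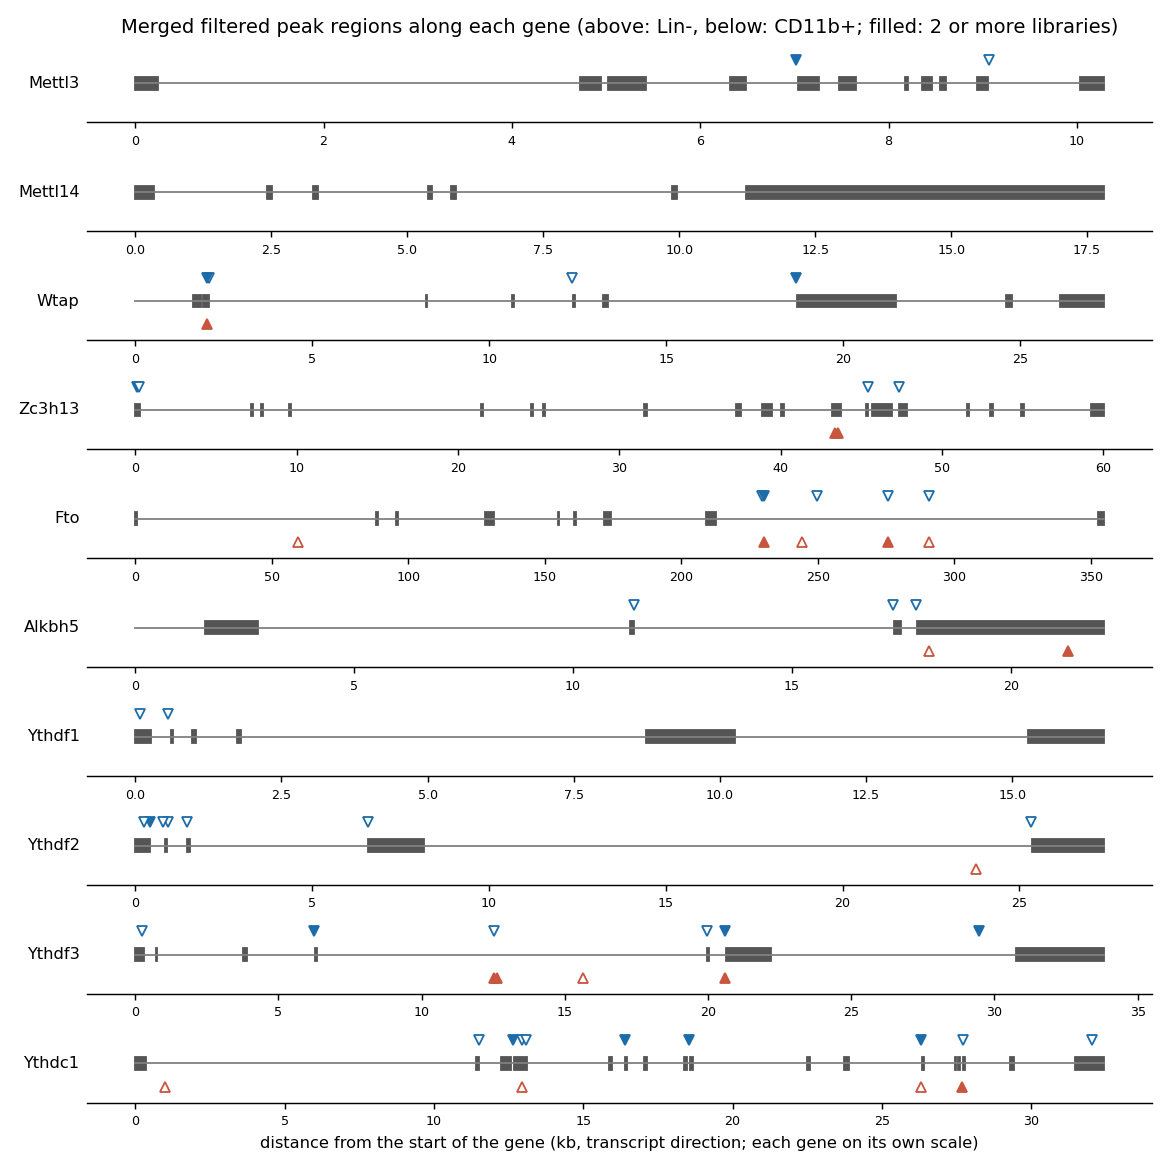
Each row draws a gene from its start in the direction of transcription, on its own scale in kb, with grey blocks for the exons of coding transcripts and triangles for merged filtered peak regions (Lin- above, CD11b+ below, filled where 2 or more libraries had the peak). Lin- triangles sit at the left edge of exons in Ythdc1, Ythdf2 and Ythdf3, and 9 of the 10 Fto triangles lie in its last intron.

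The most constant region was at the end of intron 3 of Ythdf3 (ENSMUSG00000047213), at chr3:16203771-16203839 on the plus strand, where the sequence shown above runs into the large coding exon. A filtered peak was called there in each of the 10 libraries. It held 19, 30 and 21 reads in the Lin- biological, 12, 11 and 9 in the Lin- technical, 16 and 27 in the CD11b+ biological and 17 and 14 in the CD11b+ technical libraries, and the cell types overlapped. No input had a peak there. This was 1 of 3 Ythdf3 splice sites with a region, and the other two, in Lin- cells alone, had at most 7 reads.

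A different Ythdf3 region had more reads per peak in the CD11b+ libraries. The TG and GA repeat of intron 3, at chr3:16195689-16195791, is centred 6176 nt after the nearest splice site. Its peaks had 24 and 46 reads in the biological and 25 and 20 in the technical CD11b+ libraries, where in Lin- cells biological library 2 alone had a peak, of 8 reads. Every CD11b+ library was thus above every Lin- library, as a description of a region that was picked for recurring. The reads are not scaled to depth, which is unknown. How many regions of all genes separate in this way was not counted. Over all genes, regions with a CA, TG or GA repeat were also more common in CD11b+ (46.5%) than in Lin- cells (18.1%).

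Ythdc1 (ENSMUSG00000035851, chr5:86804221-86836659) had peaks at the ends of 5 introns, each with at most 8 reads. The end of intron 3 is the one that did not recur between biological libraries. The end of intron 8 (chr5:86822733-86822796) had peaks of 8 and 8 reads in Lin- biological libraries 1 and 2 and of 3 and 5 reads in technical libraries 4 and 5, and none in CD11b+ cells. The end of intron 14 (chr5:86831890-86831949) had 4 and 6 reads in the CD11b+ biological and 5 and 3 in the CD11b+ technical libraries. Among Lin- libraries, technical library 5 alone had a peak there, also of 6 reads. The end of intron 5 had 6 reads in Lin- biological libraries 1 and 3 and no CD11b+ peak. The end of intron 11 had peaks in both cell types, of 5 reads in 3 Lin- libraries and 3 reads in CD11b+ biological library 1. Both intron ends with a CD11b+ peak, those of introns 11 and 14, thus had a Lin- peak as well. The ends of introns 3, 5 and 8 had peaks in Lin- cells alone, at depths where a peak can be missed. A purine-rich stretch of coding exon 4 (chr5:86817112-86817211), 12.0% C and T, had 8 reads in CD11b+ biological library 1 and 3 in Lin- technical library 5.

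Wtap (ENSMUSG00000060475, minus strand) had a narrow region of 23 nt in the 5'UTR of its exon 1, at chr17:12992126-12992148, with the sequence gcgggggggccggcggcggcgcg. Filtered peaks had 44, 45, 15 and 14 reads in the 4 CD11b+ libraries. Lin- biological library 3 and technical library 6 had 17 and 13 reads. The 23 nt are the merged span, and the peaks of 44 and 45 reads were 5 and 3 nt wide. This was the only Wtap region in CD11b+ cells, so the Wtap call against the inputs there rests on it. Before the smInput filter all 10 libraries had a peak there. Reads were 33, 140 and 17 in the Lin- biological and 18, 37 and 13 in the Lin- technical libraries. The peak of 140 reads was 4 nt wide. The filter had removed the peak in 4 Lin- libraries, and Lin- inputs 1 and 2 had peaks of 4 and 5 reads at this place, so its absence in those libraries is a result of the filter. The end of Wtap intron 5 (chr17:12975456-12975521) had 4, 8, 6 and 9 reads in Lin- biological libraries 1 and 3 and technical libraries 4 and 6, no CD11b+ peak and no input peak.

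Zc3h13 (ENSMUSG00000022000), the zinc finger subunit of the writer complex, had separate sites in the 2 cell types. In CD11b+ cells nearby regions of 191 and 137 nt lay in coding exon 12 of 19 (chr14:75327631-75327821 and chr14:75327879-75328015), in sequence with 12.6% and 8.76% C and T. The second had 21 and 16 reads in the biological libraries and 23 in technical library 3, but no peak in technical library 4, and no Lin- library had a peak at either. In Lin- cells the 5'UTR region (chr14:75284407-75284491) had 12 and 5 reads in biological libraries 2 and 3 and 5 in technical library 5.

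Fto (ENSMUSG00000055932) is the longest of the genes, at 354.9 kb, and 9 of its 10 regions, counted in each cell type, were in intron 8, its last. The CA repeat at chr8:91543776-91543872 had 7 and 8 reads in Lin- biological libraries 1 and 3 and 12 in Lin- technical library 5, and 22, 5 and 32 reads in CD11b+ biological library 2 and technical libraries 3 and 4. CD11b+ biological library 1 had no Fto peak of any kind, so the cell types overlapped. A GA repeat and a second CA repeat of the same intron also had peaks in both cell types, with at most 10 reads, and the repeats 20927 nt or more from a splice site held all 3 of the Fto regions found in both.

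Alkbh5 (ENSMUSG00000042650) had its deepest region in the TG repeat of its 3'UTR (chr11:60557640-60557734), in CD11b+ cells alone, with 21 and 11 reads in the biological libraries, 26 in technical library 3 and no peak in technical library 4. Its 3 Lin- regions had at most 4 reads. Ythdf2 (ENSMUSG00000040025) had 1 recurring region, 10 nt after the 5' splice site of intron 1 (chr4:132211869-132211910), with 8 and 4 reads in Lin- biological libraries 2 and 3 and 3 in technical library 4. Its deepest peak, of 14 reads, was also in intron 1, in Lin- biological library 1 alone. Mettl3 (ENSMUSG00000022160) and Ythdf1 (ENSMUSG00000038848) had 2 Lin- regions each, none of them in 2 biological libraries, with at most 6 reads, and Mettl3 overlaps the end of Tox4 on the opposite strand.

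**Figure D5:**
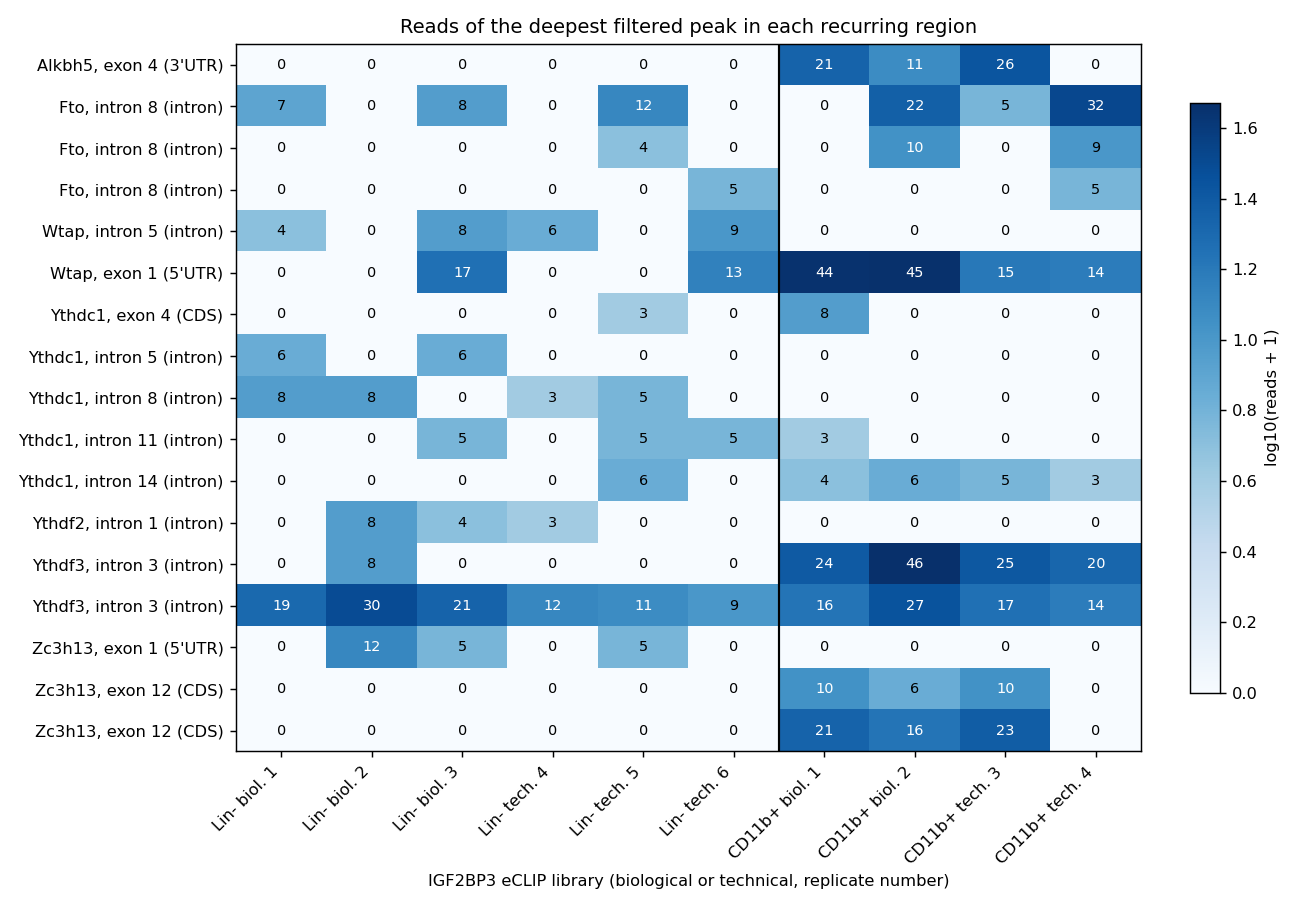
Each cell gives the reads of the deepest filtered peak in a recurring region (rows, with the exon or intron number) in an eCLIP library (columns, Lin- left of the line and CD11b+ right), coloured by log10(reads + 1), and 0 means no peak. The Ythdf3 intron 3 row with 9 to 30 reads is filled in all 10 libraries, while the Alkbh5 3'UTR and the Zc3h13 exon 12 rows are filled in CD11b+ libraries alone.

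A list of 18 other m6A genes, 17 of them in both tables, was read in the same way. It holds other writer subunits, other methyltransferases and other proposed readers. In each cell type 11 of the 17 (64.7%) had a region, 49 regions in Lin- and 28 in CD11b+ cells. Of genes at 400 normalized counts or above, 63.6% and 58.8% had a peak, and of all listed genes 26.5% and 25.6%. The 17 genes are matched to neither set. Igf2bp1 (0.8368 and 0.995) and Igf2bp2 (93.24 and 29.3) stood below 400 in both cell types. Cbll1, Mettl16 and Mettl5 did so in CD11b+ cells. Hnrnpa2b1, which encodes a nuclear RNA-binding protein described as a reader, held the most, with 15 and 9. Prrc2a had 12 and 3, Pcif1, the methyltransferase for the cap-adjacent base, had 5 and 0, and the Igf2bp3 transcript itself had 3 and 4. Of the METTL3 complex, Virma had 3 regions in each cell type, Cbll1 1 and Rbm15 none. Hnrnpa2b1 and Prrc2a were also far more abundant than any of the 10 genes, with means of 25943 and 22291 normalized counts in Lin- cells, and the part of abundance in these counts was not tested.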

How the data were processed

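IGF2BP3 eCLIP, smInput and RNA-seq libraries were grouped by their labels. For RNA-seq, the authors deposited 1 table per cell type. The submitters' processing notes name STAR 2.5.3a, Bowtie2, DESeq2 and mm10. Only the mean normalized count was used, a signal that the authors averaged over WT and KO libraries. The other columns hold the authors' comparison of KO with WT (log2 fold change, its error, the statistic, p-values) and peak calls, and none was used. For eCLIP, the deposited lists hold CLIPper peaks per library, before and after the authors' smInput filter. Per the file headers, eCLIP and smInput used different deduplication and calling settings. An unnamed column (at most 0.05) was read as CLIPper's p-value, deposited with each peak, and the last number of the peak name as its reads. Multi-mapping rules are not given in the sources used here.

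Peaks of a cell type that overlapped by at least 1 nt on the same gene and strand were merged. Locations came from GENCODE M21 basic transcripts, and sequences from GRCm38.p6, whose spliced sequence was identical to GENCODE for 25 of 25 transcripts of the 10 genes. Sequences were searched on the transcript strand. Peaks per gene were scaled per 10000 peaks of the library and compared over all genes by exact permutation (two-sided), with non-overlap of the biological libraries as the call. Shares have 95% Wilson intervals. Replicates were not shown to be separate animals, so p-values measure the spread between these libraries, and identical peak ends were shared by 0.449 to 2.22% of peaks between eCLIP libraries of a cell type. Scripts used Python 3.11.15, pandas 2.3.3, NumPy 2.4.6, SciPy 1.17.1, pysam 0.24.0 and matplotlib 3.10.9. The gene-wise calls were also run on simulated Poisson counts. Only genes with more peaks were changed there, so the recovery of changes on genes with few peaks was not tested.

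The 10 genes and the list of 18 were chosen with earlier results of these data known. All 10 genes are named. Of the 18, values are given for up to 3 per cell type with the most regions, where Prrc2a and Virma tied in CD11b+ cells, and Cbll1 and Rbm15 were named after their values were seen. Of regions, those in at least 2 biological libraries of a cell type or in both cell types are named, and others are given by range. Alternatives covered the libraries used, the filter, the p-value, read and length limits, merging, annotation, scaling and gene length.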

Additional observations from a re-analysis of the deposited data

Results flagged for a closer look

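Library values of each gene and of the 10 genes together, in peaks per 10000, were screened for a sample far from the others, over the 6 or 4 eCLIP or input libraries of a cell type, biological and technical together. Of 44 sets, 4 were flagged. The 44 include sets with 0 peaks in every library, such as those of Mettl14, which could not be flagged. A gene with a peak in 1 of 4 libraries alone is always flagged, so no rate of chance flags can be given. The 4 flagged sets were all of 4 CD11b+ libraries. Ythdf2 stood at 1.41 in CD11b+ technical library 4, from 1 peak in a CA repeat of intron 4, and at 0 in the other 3. Ythdf3 stood at 2.35 in CD11b+ biological library 1, below the other 3. CD11b+ input 3 had 0 for Alkbh5, and thus 0 for all 10 genes, where the other 3 inputs had a peak in an intron of Alkbh5. Each rests on a few peaks.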

How the results depend on the processing

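Of 80 alternative values, 60 stayed within 1.5 times the reported count, within the interval of the reported share or at the reported level. Peaks of at least 10 reads, a limit added after seeing the data, left 5 genes with a peak and 5 merged regions in Lin- cells and 8 regions in CD11b+ cells. A deposited p-value below 0.001 left 17 and 12 regions. Counting any exon base as exonic gave an intron share of 31.0% in Lin- cells. A 100 nt window raised the share with a CA, TG or GA repeat to 31.0% in Lin- cells. With all eCLIP and smInput libraries, 2 genes had more peaks than the inputs in Lin- cells (8.42% of all genes). Lengths of longest transcripts gave a Lin- median of 598.5 per kb. Genes whose libraries did not overlap between cell types numbered 2 before the smInput filter (Wtap and Ythdf2) and 0 in technical libraries. The share of all genes called was not computed for these settings.

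Leaving out 1 biological replicate at a time, among biological libraries alone, gave 9 genes with a peak in Lin- and 5 to 6 in CD11b+ cells, and 24 to 25 and 9 to 14 merged regions, where all libraries gave 42 and 19. The share before a 3' splice site was 57.9 to 65.0% in Lin- and 20.0 to 75.0% in CD11b+ cells. The upper value came without CD11b+ biological replicate 2 and rests on 3 of 4 regions. The share with a repeat was 8.33 to 16.0% and 44.4 to 71.4%. Non-overlapping genes numbered 1 to 4. Ythdf2 was among them each time by construction, since a call made on all biological libraries must hold when 1 is left out. They numbered 4 without Lin- biological replicate 2 (with Mettl3, Wtap and Ythdf3) and 4 without CD11b+ biological replicate 1 (with Wtap, Fto and Ythdc1). Leaving out a library can only add such genes. The share of all genes called was not computed for these settings, so the added genes have no background beside them.

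As a replicate block, each eCLIP library was set against the smInput library of its number, which gave the same 4 genes in Lin- and the same 4 in CD11b+ cells, with 21.5% and 34.4% of all genes. The study set aside a small part of each eCLIP sample for its input, so the libraries are paired by design. Deviations of same-numbered libraries correlated at -0.094 to 0.067 over genes. The input lists are short, so this cannot show whether equal numbers mark the pairs. Read depth is unknown, and most peaks hold few reads, so a missing peak does not show absence of binding.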

Other observations

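In the Wtap 5'UTR region, removal by the input filter affected Lin- biological libraries 1 and 2 and technical libraries 4 and 5, while library 3 and library 6 kept the peak. Over all genes, the share of peaks before a 3' splice site was 54.5, 16.5 and 40.7% in Lin- biological libraries 1, 2 and 3 and 51.6, 15.4 and 37.7% in technical libraries 4, 5 and 6. The labels name no biological partner for a technical library. In the peak lists, each technical library shared the largest percent of identical peak ends with 1 biological library: Lin- 4 with 1 (0.75%), 5 with 2 (2.22%) and 6 with 3 (1.05%), and CD11b+ 3 with 1 (0.795%) and 4 with 2 (1.31%). The 3' splice site shares of these Lin- pairs were also the closest, and the Wtap peak was lost or kept in both libraries of each pair. This is a hint from the data, and no library was paired by it.

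CD11b+ cells had a larger share of peaks with at least 10 reads on the 10 genes (51.1% of 45) than Lin- cells (14.7% of 68). Over all genes these shares were 38.1% and 28.2%.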
